A study of Mus musculus with 6 samples.

Results

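Amino acids cross cell membranes on carrier proteins of several solute carrier (SLC) families, and 38 genes of the SLC1, SLC3, SLC6, SLC7, SLC36, SLC38 and SLC43 families were followed here in organoids grown from mouse small intestinal crypts. The genes were picked by name, all 38 were found by their Ensembl identifiers among the 55416 genes of the table, and 31 had a mean of at least 10 normalized counts, the minimum set for testing. Crypts came from the duodenum and jejunum of 3 wild-type C57BL/6 mice, and crypts of each mouse were cultured for 5 days with 50 μg/ml low-density lipoprotein (LDL) or with phosphate-buffered saline (PBS). Each culture gave 1 RNA-Seq library, so each mouse contributed 1 LDL-treated and 1 PBS-treated sample, 6 libraries in all. Organoids hold epithelium without the blood vessels, stroma and circulating lipoproteins of the animal, and the labels describe no other treatment. Mouse 3 is labelled wild type, but its animal identifier leaves that label in doubt, and calls that are lost without mouse 3 are given.

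In the small intestine, dietary amino acids enter the enterocyte through sodium- or proton-coupled carriers and exchangers of the brush border and leave it for the blood through exchangers and uniporters of the basolateral membrane. Many SLC7 proteins are light chains that reach the cell surface only when bound to a heavy chain, either Slc3a1 at the brush border or Slc3a2 (CD98) on the basolateral side and in dividing cells. Other members feed growth rather than absorption, such as the glutamine exchanger Slc1a5 and the leucine carrier Slc7a5, and a few act mainly on intracellular membranes.

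Between 22061545 and 31073360 reads were counted on genes per library. Normalized counts are these reads after division by a size factor, 1 per library. The LDL-treated library of mouse 1 stood apart in holding reads on 35781 genes against 29285 to 32751 in the others, and in giving 7.62% of its normalized counts to the ribosomal RNA gene Rn18s-rs5. The epithelial gene Vil1 had 7560 to 9737 normalized counts per library. The 7 stromal markers summed to 19.1 to 79.3 with LDL and to 26.9 to 61.2 with PBS, the 3 endothelial markers to 10 to 25.6 and 14.7 to 22.5, and the 5 immune markers to 147 to 216 and 130 to 197. No read of Dcn, a fibroblast marker, was found in the PBS-treated libraries. Of 4 markers of glia and nerve, S100b rose (log2 fold change 3.12, adjusted p = 0.0106 from limma, 0.144 without mouse 3), while Sox10 had at most 20.4 normalized counts in any library.

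LDL- and PBS-treated organoids were compared with the moderated test of limma on log2(normalized count + 1), with the mouse as a block, across all 18459 genes tested. A gene was called when its change exceeded 1.5-fold with a p-value, adjusted after Benjamini-Hochberg, below 0.05. Of the 31 transporters tested, 5 were downregulated and 0 were upregulated, against 3.46% and 5.68% of all genes tested. All 5 belong to the SLC7 family, namely Slc7a2, Slc7a15, Slc7a8, Slc7a3 and Slc7a4, with log2 fold changes from -2.13 to -0.71. Another 7 had an adjusted p-value under 0.05 with a change below 1.5-fold, of which Slc1a1, Slc38a9, Slc1a5 and Slc1a3 were lower and Slc38a1, Slc6a20a and Slc7a6 were higher. By the adjusted p-value alone, at any fold change, 9 transporters were lower and 3 higher, against 7.45% and 8.27% of all genes tested. In limma without mouse 3, the adjusted p of the 7 genes below 1.5-fold ran from 0.161 for Slc38a9 to 0.385 for Slc1a3. Without mouse 1 it ran from 0.0778 for Slc38a9 to 0.214 for Slc1a1. Without the block it ran from 0.106 for Slc1a5 to 0.408 for Slc6a20a, and none of the 7 passed the threshold in these fits. The median log2 fold change of the 31 genes was -0.21, beside -0.02 for all genes tested. LDL gave the lower value in each of the 3 mice for 16 of them and the higher value for 5, against 26.8% and 24.2% of all genes tested. The libraries of the 2 treatments did not overlap for 10 of the 31, with 8 lower and 2 higher in LDL-treated organoids, against 12.3% and 11.9% of all genes tested. The counts depended on pairing by mouse, since without the block only Slc7a2 was downregulated and 0 transporters were upregulated (0.395% and 0.878% of all genes tested). They depended on mouse 3 as well, without which only Slc7a2 and Slc7a8 were downregulated and 0 transporters were upregulated, while the calls over all genes tested fell as well, to 0.417% lower and 1.44% higher. With the block, edgeR on the recovered reads called 5 lower and 1 higher (3.19% and 6.34% of all genes tested) and DESeq2 called 4 lower and 0 higher (2.77% and 5.31%). Limma with no minimum called 5 lower and 1 higher (1.48% and 2.46% of 43039 genes), and the gene called higher was Slc7a11 both times. Fewer cells of a kind and less RNA per cell cannot be told apart in these samples.

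**Figure D1:**
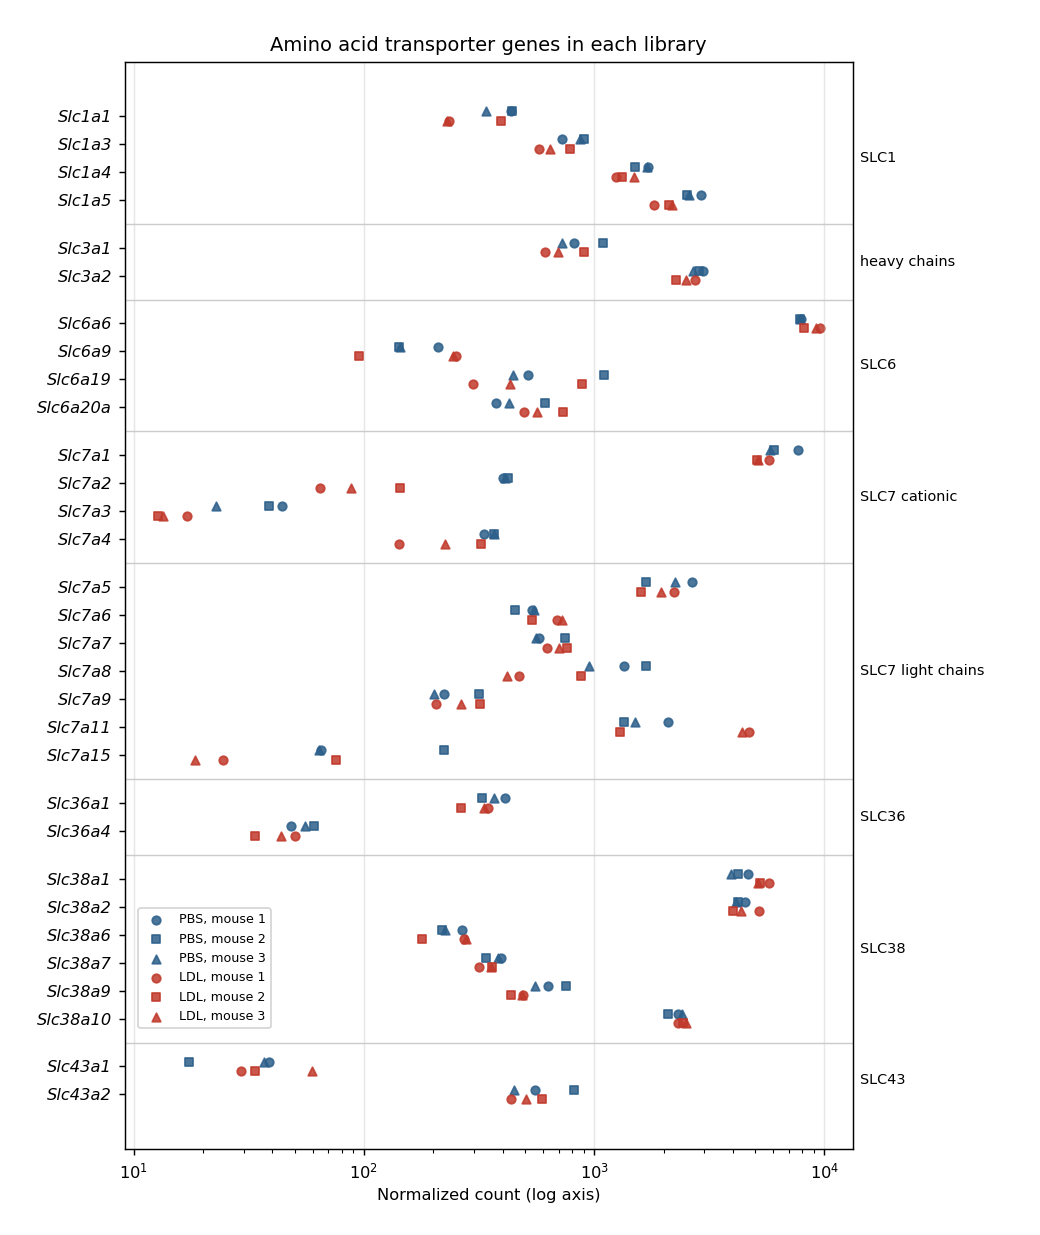
Normalized counts (horizontal, log axis) of the 31 tested transporter genes in each of the 6 libraries, grouped by family. Blue symbols are PBS-treated and red symbols LDL-treated organoids, and the symbol shape gives the mouse. Levels run from means of 24.7 for Slc7a3 to 8413 for Slc6a6, and the red symbols of Slc7a2 and Slc7a8 lie to the left of all blue ones.

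Levels of different genes were ranked here per length, as normalized counts per kilobase of merged exons, a scale that is lowered for genes with long alternative exons. Elsewhere, levels are normalized counts unless given per kilobase. In PBS-treated organoids the taurine carrier Slc6a6 had the highest mean level per kilobase, with 648, 645 and 644 in mice 1, 2 and 3. In mouse 1 alone, Slc7a5 and Slc7a1 exceeded it. Next came the heavy chain Slc3a2 (636, 612 and 575), its light chain Slc7a5 (690, 437 and 586), the arginine and lysine carrier Slc7a1 (651, 513 and 494) and Slc1a5 (538, 467 and 476). These 5 followed each other closely, and each overlapped its neighbor in that order over the 3 mice except that every library of Slc6a6 exceeded every one of Slc3a2. The same 2 genes led in LDL-treated organoids, with means per kilobase of 735 for Slc6a6 and 538 for Slc3a2. Summed over all 38 genes, normalized counts were 47965, 42287 and 46145 with LDL and 48347, 45383 and 43006 with PBS, so the treatments overlapped in the total.

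Slc7a1 to Slc7a4 form the cationic branch of the SLC7 family, which needs no heavy chain. Slc7a1, Slc7a2 and Slc7a3 carry arginine, lysine and ornithine, and for Slc7a4 no transport has been firmly shown. All 4 were lower with LDL in each mouse, with no overlap between treatments, and 3 were downregulated. Of all genes tested, 26.8% were lower in each mouse, 12.3% were lower without overlap and 3.46% were downregulated. Slc7a2 (ENSMUSG00000031596, chromosome 8 of GRCm39, 41315431 to 41375345) had 401, 422 and 411 normalized counts in the PBS-treated libraries of mice 1, 2 and 3. After LDL it had 64.6, 143 and 87.8, so every treated library was well below every control. Slc7a2 was downregulated (log2 fold change -2.13, standard error 0.20, adjusted p = 0.000645 from limma), and it was also called without the block (adjusted p = 0.0155 from limma) and with each mouse left out in turn. The controls agreed closely here (412 ± 10.7, SD, n = 3) and the treated libraries spread more (98.4 ± 40.1, SD, n = 3).

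Slc7a3 (ENSMUSG00000031297, chromosome X, 100122745 to 100129631) was much scarcer, at 43.9, 38.5 and 22.8 normalized counts with PBS and 17.1, 12.7 and 13.4 with LDL. These values rest on 28 to 43 and 14 to 16 reads. Slc7a3 was downregulated (log2 fold change -1.19, standard error 0.28, adjusted p = 0.0288 from limma), but DESeq2 with the block did not call it (adjusted p = 0.115). Slc7a4 (ENSMUSG00000022756, chromosome 16, 17386477 to 17401122) had 332, 368 and 367 with PBS and 141, 322 and 224 with LDL. Mouse 1 fell the furthest and mouse 2 changed little, to 0.426 and 0.875 of the control. Slc7a4 was downregulated (log2 fold change -0.71, standard error 0.18, adjusted p = 0.0384 from limma), and its span covers P2rx6 on the other strand, which held a mean of 13.0 normalized counts. Slc7a3 and Slc7a4 were not called without the block (adjusted p = 0.111 and 0.20 from limma), without mouse 1 (0.132 and 0.136) or without mouse 3 (0.116 and 0.268).

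Slc7a1 (ENSMUSG00000041313, chromosome 5, 148264220 to 148336848), the main carrier of the branch in these cells, had 7669, 6044 and 5826 normalized counts with PBS and 5722, 5105 and 5142 with LDL. The treatments did not overlap, but the highest treated library lay only just below the lowest control, and the gene was not called (log2 fold change -0.28, standard error 0.08, adjusted p = 0.0555 from limma). Per kilobase, Slc7a1 made up 87.8%, 84.3% and 84.4% of the summed level of the 4 genes with PBS and 94.6%, 88.4% and 91.7% with LDL. The share of Slc7a2 went from 5.35%, 6.86% and 6.94% to 1.25%, 2.88% and 1.82%. Both shares separated the treatments completely, which gives p = 0.1 in the exact two-sided permutation test, the smallest value that 3 samples against 3 allow. They were chosen after the values had been seen, and the test ignored the pairing by mouse.

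**Figure D2:**
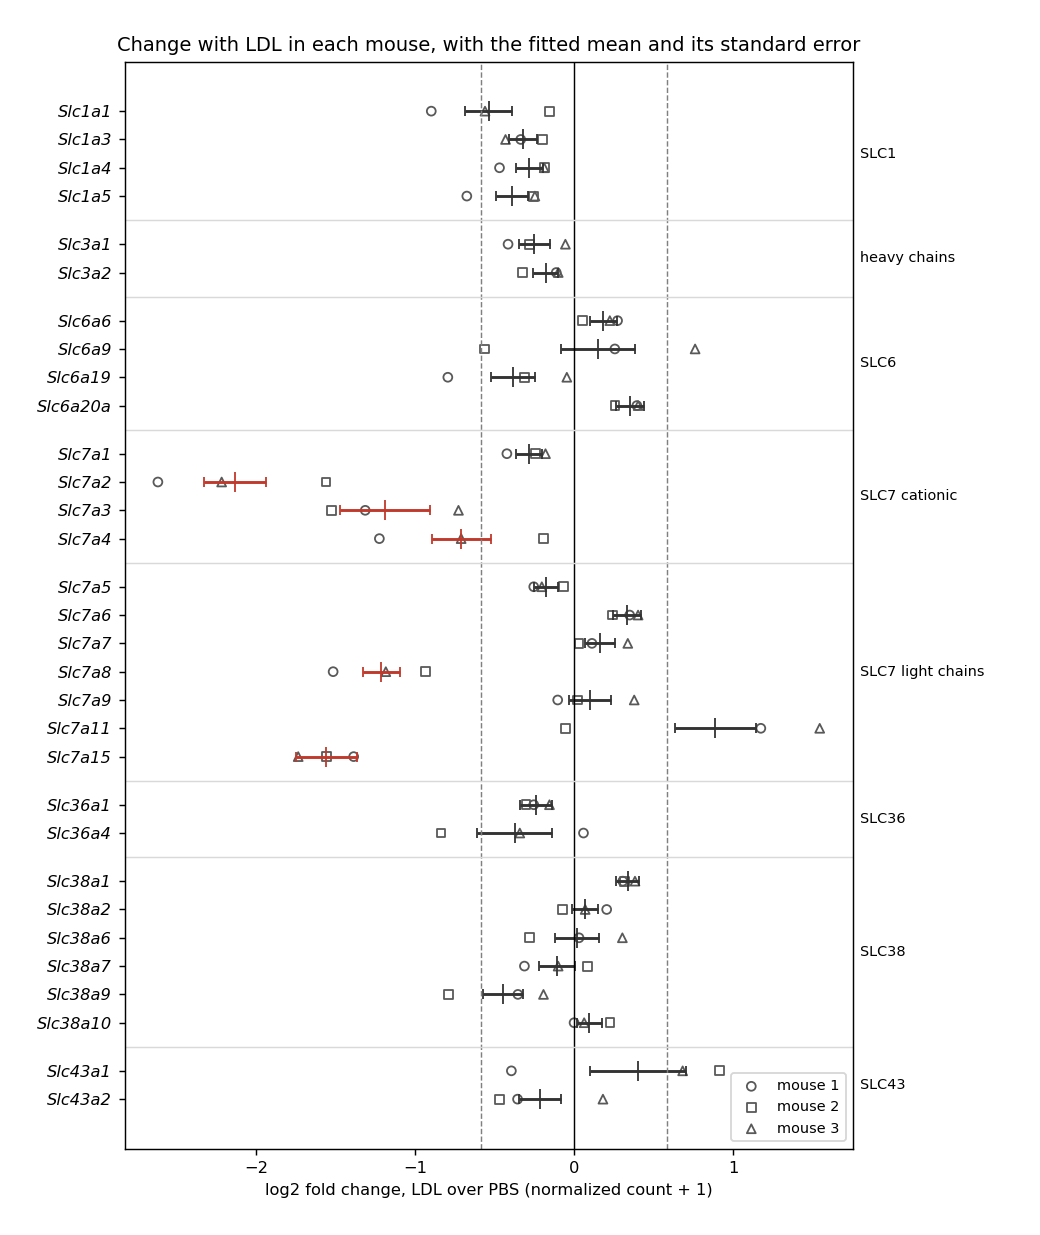
Log2 fold changes of LDL over PBS (horizontal, on normalized counts plus 1) for the 31 tested transporters. Open symbols are the 3 mice, the vertical tick and bar are the fitted mean and its standard error, red marks the 5 called genes, and dashed lines mark a 1.5-fold change. Slc7a2, Slc7a15, Slc7a8 and Slc7a3 have all 3 mice beyond the left dashed line, and Slc7a11 has mice 1 and 3 to the right and mouse 2 near 0.

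Light chains of the SLC7 family showed the widest range, from -1.56 for Slc7a15 to 0.89 for Slc7a11 on the log2 scale. Of 7 tested, 2 were downregulated, beside 3.46% of all genes tested. Slc7a8 (ENSMUSG00000022180, chromosome 14, 54959630 to 55019649) encodes a light chain of Slc3a2 that exchanges neutral amino acids at the basolateral membrane. It had 1354, 1675 and 953 normalized counts with PBS and 473, 876 and 419 with LDL. All treated libraries were below all controls, and within a mouse LDL left 0.35, 0.523 and 0.440 of the control level. Slc7a8 was downregulated (log2 fold change -1.21, standard error 0.12, adjusted p = 0.000759 from limma), and it was called with each mouse left out in turn but not without the block (adjusted p = 0.0962 from limma).

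Slc7a15 (ENSMUSG00000020600, chromosome 12, 8578483 to 8649066) is a related member of the light chain branch. Its level depended strongly on the mouse, with 65.3, 224 and 63.5 normalized counts in controls of mice 1, 2 and 3. LDL-treated libraries had 24.4, 75.5 and 18.4, so that the treated library of mouse 2 exceeded the controls of the other mice while every mouse fell. The proportion that was left varied little, at 0.373, 0.337 and 0.290. With the block, Slc7a15 was downregulated (log2 fold change -1.56, standard error 0.19, adjusted p = 0.00235 from limma), while the fit without it did not call the gene (adjusted p = 0.229 from limma). Leaving out mouse 3 brought the adjusted p to 0.0503 at a log2 fold change of -1.47.

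Slc7a11 (ENSMUSG00000027737, chromosome 3, 49846975 to 50398070) encodes the cystine and glutamate exchanger that supplies cysteine for glutathione. It had 2094, 1341 and 1506 normalized counts with PBS and 4721, 1290 and 4390 with LDL. Mice 1 and 3 gained 2.26-fold and 2.91-fold, and mouse 2 did not (0.962 of its control). Slc7a11 was not called (log2 fold change 0.89, standard error 0.26, adjusted p = 0.0536 from limma). It was called without mouse 2 (log2 fold change 1.36, adjusted p = 3.5e-10 from limma), by edgeR with the block (adjusted p = 0.0435) and when genes with a mean below 10 were kept in the test (adjusted p = 0.0363 from limma). DESeq2 with the block did not call Slc7a11 (adjusted p = 0.227). Limma did not call it without the block (adjusted p = 0.338), without mouse 1 (0.118) or without mouse 3 (log2 fold change 0.56, adjusted p = 0.392). The 6 markers of fetal-like epithelium (among them Clu, Il1rn, Msln, Anxa1 and Ly6a) were upregulated with the block, 5 of them without mouse 3 and 0 without the block, and their sum went from 960, 116 and 674 normalized counts in mice 1, 2 and 3 to 20907, 1842 and 15589. Mouse 2 was thus the lowest for both Slc7a11 and these markers, with PBS as well as with LDL. The marker sum rose in mouse 2 too, where Slc7a11 did not. The part of these markers in the result was not tested.

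**Figure D3:**
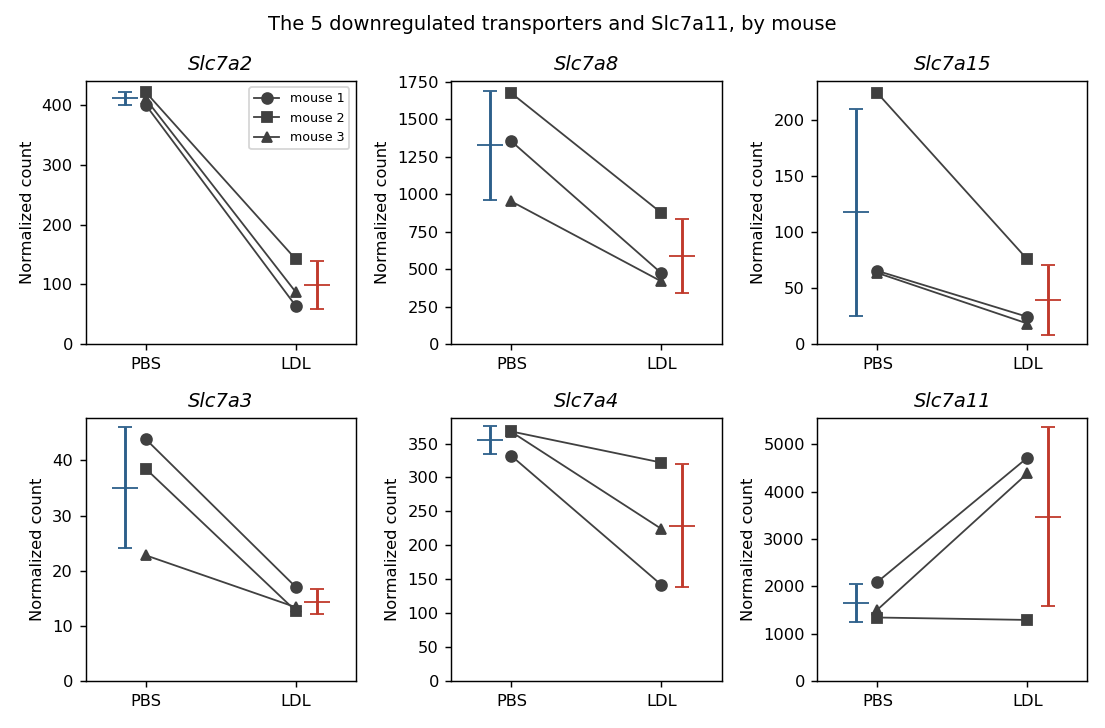
Normalized counts with PBS and LDL of the 5 downregulated transporters and Slc7a11, with lines joining the 2 libraries of a mouse. Colored bars beside the points are the mean and SD of each treatment (n = 3). All lines of the first 5 genes slope downward, and for Slc7a11 mice 1 and 3 slope upward while mouse 2 stays level.

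The remaining partners of Slc3a2 moved less. Slc7a5, the leucine and tryptophan exchanger of growing cells, had 2650, 1679 and 2253 normalized counts with PBS and 2222, 1601 and 1957 with LDL, with overlapping treatments (log2 fold change -0.18, standard error 0.08, adjusted p = 0.17 from limma). Slc7a6, which exchanges arginine for neutral amino acids with sodium, had 539, 455 and 548 with PBS and 687, 538 and 724 with LDL. Each mouse was higher with LDL, but the groups overlapped and the change stayed below 1.5-fold (log2 fold change 0.33, standard error 0.09, adjusted p = 0.0419 from limma). Slc7a7, the basolateral exit route of arginine and lysine in enterocytes, had 578, 747 and 559 with PBS and 624, 763 and 706 with LDL (log2 fold change 0.16, standard error 0.09, adjusted p = 0.305 from limma). The heavy chain Slc3a2 (chromosome 19, 8684245 to 8701108) had 2968, 2854 and 2683 with PBS and 2745, 2276 and 2503 with LDL. It was lower in each mouse with overlapping groups, and was not called (log2 fold change -0.18, standard error 0.08, adjusted p = 0.177 from limma). Reads of Slc3a2 and of Snhg1, which overlaps it by 790 bases on the other strand, are separated only if strand was used in counting, a setting that is not given in the sources used here.

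**Figure D4:**
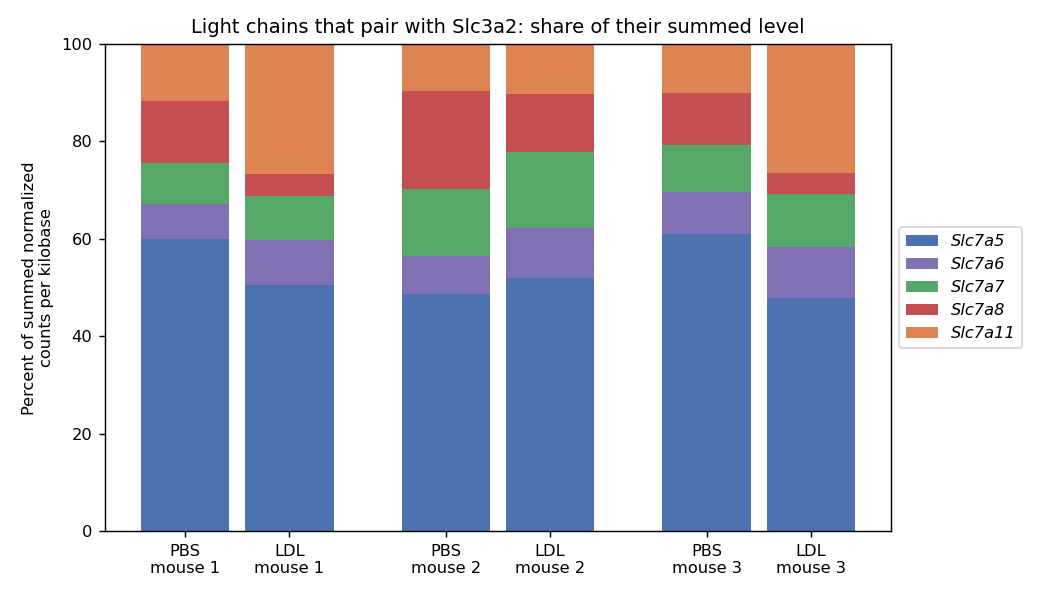
Share of each light chain in the summed normalized counts per kilobase of the 5 light chains that pair with Slc3a2, as stacked bars for the 6 libraries. Slc7a5 holds the largest share in every bar, Slc7a8 shrinks with LDL in each mouse, and Slc7a11 grows to 26.6% in mice 1 and 3 but stays at 10.3% in mouse 2.

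Among these 5 light chains, the share of Slc7a8 per kilobase was 12.7%, 20.2% and 10.7% with PBS and 4.48%, 11.8% and 4.26% with LDL. Slc7a11 held 11.7%, 9.62% and 10.1% with PBS and 26.6%, 10.3% and 26.6% with LDL. Slc7a5 held 60.0%, 48.7% and 60.9% with PBS and 50.7%, 51.9% and 47.8% with LDL, so its share fell in mice 1 and 3 and rose in mouse 2. Because these are shares of a common total, a gain by any light chain lowers the others. The share of Slc7a8 was lower with LDL in each of the 3 mice, although the treatments overlapped between mice.

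Promoters are shown for the downregulated Slc7a8 and Slc7a15 and for Slc7a11 and Slc1a4, because the last 2 hold the C/EBP-ATF response element through which amino acid shortage acts on many transporter genes. Sequences are those of RefSeq (GRCm38.p6 table), run from 250 bases before to 50 after the start, and were placed on GRCm39 by an exact match, all on the minus strand. Of the 38 transporters, 29 had at least 1 promoter in the table, and Slc7a2, Slc7a3 and Slc7a4 had none. Capitals mark matches to TGATGNAA on either strand.
Slc7a11 promoter, chr3:50398013-50398312: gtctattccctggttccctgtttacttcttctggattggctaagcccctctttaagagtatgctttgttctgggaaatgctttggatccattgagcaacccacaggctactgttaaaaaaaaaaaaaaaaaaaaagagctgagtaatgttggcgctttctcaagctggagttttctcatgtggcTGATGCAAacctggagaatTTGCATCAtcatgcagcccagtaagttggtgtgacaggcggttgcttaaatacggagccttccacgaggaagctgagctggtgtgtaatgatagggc
Slc1a4 promoter, chr11:20282664-20282963: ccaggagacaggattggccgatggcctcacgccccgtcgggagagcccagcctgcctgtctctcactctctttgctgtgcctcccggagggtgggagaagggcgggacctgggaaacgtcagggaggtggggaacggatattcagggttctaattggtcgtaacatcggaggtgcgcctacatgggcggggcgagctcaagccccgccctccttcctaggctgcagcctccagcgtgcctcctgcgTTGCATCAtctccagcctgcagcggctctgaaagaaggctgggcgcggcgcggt
Slc7a8 promoter, chr14:55019294-55019593: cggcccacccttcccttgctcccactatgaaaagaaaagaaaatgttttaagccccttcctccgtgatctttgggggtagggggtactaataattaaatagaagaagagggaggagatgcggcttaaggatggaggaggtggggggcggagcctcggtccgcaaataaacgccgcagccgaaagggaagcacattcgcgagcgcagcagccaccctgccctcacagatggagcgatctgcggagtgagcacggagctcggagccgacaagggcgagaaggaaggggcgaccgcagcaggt
Slc7a15 promoter, chr12:8649017-8649316: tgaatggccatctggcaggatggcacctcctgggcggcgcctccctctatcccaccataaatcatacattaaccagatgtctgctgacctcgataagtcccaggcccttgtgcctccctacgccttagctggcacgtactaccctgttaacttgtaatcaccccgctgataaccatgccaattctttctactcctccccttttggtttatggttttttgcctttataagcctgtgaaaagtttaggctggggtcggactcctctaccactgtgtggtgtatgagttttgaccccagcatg
The Slc7a11 window has 2 matches, which begin 66 and 47 bases before the start on opposite strands. The Slc1a4 window has 1, beginning 4 bases before the start, and a promoter of Slc7a7 has 2. The Slc7a8 and Slc7a15 windows have none. In all, 4 of the 42 promoters of transporters held a match (9.52%), beside 3.97% of all 32851 promoters of the same length. These 4 belong to 3 of the 29 genes. They include 2 overlapping windows of Slc7a7 that share a site, so that site is counted more than once. The PPAR response element, searched as AGGTCA, 1 base of any kind and AGGTCA again on either strand, was in 0 of the 42 and in 0.0396% of all promoters. A match is a string of letters and no evidence of binding. Of the genes with a match, Slc7a11 and Slc7a7 had log2 fold changes of 0.89 and 0.16 and Slc1a4 of -0.28.

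Carriers of the enterocyte brush border were not called. Slc6a19, the main sodium-coupled carrier of neutral amino acids, had 514, 1101 and 443 normalized counts with PBS and 296, 888 and 429 with LDL. Mouse 2 was highest under both treatments, and the decrease ranged from 0.576 of the control in mouse 1 to 0.969 in mouse 3 (log2 fold change -0.38, standard error 0.14, adjusted p = 0.109 from limma). Slc1a1, the glutamate, aspartate and cysteine carrier, had 435, 437 and 339 with PBS and 233, 393 and 230 with LDL. Its change stayed below 1.5-fold (log2 fold change -0.54, standard error 0.15, adjusted p = 0.0458 from limma), and without mouse 2 it was called (log2 fold change -0.73, adjusted p = 0.00019 from limma). Slc6a20a, which carries proline, had 376, 610 and 428 with PBS and 494, 729 and 566 with LDL. Every mouse was higher with LDL by a similar factor (1.31, 1.20 and 1.32), the groups overlapped, and the change was below 1.5-fold (log2 fold change 0.35, standard error 0.09, adjusted p = 0.0370 from limma). Slc6a20a can share reads with its near copy Slc6a20b and overlaps Gm47171 on the same strand, which was itself upregulated at a mean of 38.3 normalized counts.

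The heavy chain Slc3a1 and its light chain Slc7a9 together form the brush border exchanger for cystine and cationic amino acids that is defective in cystinuria. Slc3a1 had 814, 1095 and 725 normalized counts with PBS and 610, 901 and 698 with LDL, lower in each mouse with overlapping groups (log2 fold change -0.25, standard error 0.10, adjusted p = 0.123 from limma). Slc7a9 had 222, 316 and 202 with PBS and 206, 320 and 263 with LDL (log2 fold change 0.10, standard error 0.13, adjusted p = 0.670 from limma). Per kilobase, the ratio of Slc3a1 to Slc7a9 was 2.01, 1.90 and 1.96 with PBS and 1.62, 1.54 and 1.45 with LDL. This ratio, chosen after the values had been seen, was lower in every treated library than in every control. The exact two-sided permutation test, which ignored the pairing by mouse, gave p = 0.1, its smallest possible value here. Slc3a1 overlaps Prepl by 5059 bases on the other strand. Slc36a1, a proton-coupled carrier of small neutral amino acids, had 410, 324 and 369 with PBS and 344, 263 and 331 with LDL (log2 fold change -0.24, standard error 0.10, adjusted p = 0.161 from limma). Slc43a2, a basolateral uniporter, had 554, 819 and 446 with PBS and 433, 591 and 506 with LDL, and its direction differed between mice (log2 fold change -0.21, standard error 0.13, adjusted p = 0.329 from limma). The 10 enterocyte markers summed to 55483, 85618 and 52042 normalized counts with PBS and to 50733, 85190 and 51603 with LDL, highest in mouse 2 as for Slc6a19, Slc7a8 and Slc7a15. Of these markers, Alpi and Apoa4 rose and Lct fell, with Alpi alone called without the block (adjusted p = 0.156 for Apoa4 and 0.227 for Lct from limma), and their part in the levels of the carriers was not tested.

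In the SLC1 family, the 4 genes tested were lower with LDL in each mouse, as were 26.8% of all genes tested, and none was called. Slc1a5, a glutamine exchanger, had 2912, 2529 and 2582 normalized counts with PBS and 1825, 2117 and 2176 with LDL. The treatments did not overlap, and the change was below 1.5-fold (log2 fold change -0.39, standard error 0.10, adjusted p = 0.0368 from limma). Slc1a4, which exchanges alanine, serine and cysteine, had 1714, 1499 and 1690 with PBS and 1238, 1316 and 1483 with LDL, again without overlap (log2 fold change -0.28, standard error 0.09, adjusted p = 0.0667 from limma). Slc1a3, a glutamate carrier best known from astrocytes, had 724, 900 and 866 with PBS and 573, 783 and 642 with LDL (log2 fold change -0.32, standard error 0.09, adjusted p = 0.0443 from limma). The treated library of mouse 2 exceeded the control of mouse 1, so the groups overlapped.

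Sodium-coupled neutral carriers of the SLC38 family had 6 members tested, with 0 called in either direction. Slc38a1, a glutamine carrier, had 4648, 4193 and 3936 normalized counts with PBS and 5743, 5230 and 5129 with LDL. All treated libraries exceeded all controls at a change below 1.5-fold (log2 fold change 0.34, standard error 0.07, adjusted p = 0.0204 from limma). Slc38a2, whose transcript is known to accumulate when amino acids run short, had 4522, 4222 and 4129 with PBS and 5210, 4011 and 4331 with LDL, and its direction differed between mice (log2 fold change 0.07, standard error 0.08, adjusted p = 0.645 from limma). Slc38a9, a lysosomal carrier that senses arginine for the growth kinase mTORC1, had 630, 754 and 554 with PBS and 493, 436 and 485 with LDL. The groups did not overlap, at a change below 1.5-fold (log2 fold change -0.45, standard error 0.12, adjusted p = 0.0491 from limma). The other tested members, Slc38a6, Slc38a7 and Slc38a10, had log2 fold changes of 0.02, -0.11 and 0.10. Slc38a7 exports glutamine from lysosomes.

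The taurine carrier Slc6a6 had 7894, 7862 and 7852 normalized counts with PBS and 9537, 8160 and 9172 with LDL. No treated library overlapped the controls, but the gene was not called (log2 fold change 0.18, standard error 0.08, adjusted p = 0.188 from limma). The glycine carrier Slc6a9, the proton-coupled Slc36a4 and the leucine uniporter Slc43a1 each differed in direction between mice, with log2 fold changes of 0.15, -0.37 and 0.40 and standard errors of 0.23, 0.24 and 0.30.

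The 7 genes below the testing minimum were Slc1a2, Slc43a3, Slc38a3, Slc38a4, Slc38a5, Slc6a14 and Slc7a10, with means of 0.714 to 7.56 normalized counts against 24.7 for Slc7a3, the lowest gene tested. Slc38a3, a glutamine carrier best known from liver and kidney, had 9, 4 and 9 reads with LDL and 1, 1 and 0 with PBS. Slc38a4 had 2, 1 and 1 reads with LDL and 5, 0 and 2 with PBS, which overlapped. Slc38a5 had 5, 0 and 2 reads with LDL and no read in any control, which allows up to 3 reads per library. Slc43a3 and Slc1a2 had single libraries of 21 and 19 reads and no more than 9 in any other. Slc6a14, a broad carrier of neutral and cationic amino acids, and Slc7a10 had at most 3 reads in any library, so that a difference was not detectable at this depth.

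Other genes of amino acid transport and its control were taken from lists. Of 21 further carriers and partners, 9 were tested, 3 were downregulated and 0 upregulated, beside 3.46% and 5.68% of all genes tested. Among them were the proline carrier Slc6a7 (log2 fold change -1.45, adjusted p = 0.00347 from limma) and the peptide carrier Slc15a1 (-0.76, adjusted p = 0.00302). Without the block, Slc6a7 alone was called, and without mouse 3 its adjusted p was 0.0696 and that of Slc15a1 0.0481. Among 32 genes that signal amino acid supply to mTORC1, 29 were tested and 2 were downregulated, the GTPase Rragd (log2 fold change -1.19, adjusted p = 0.00434 from limma) and Sesn3 (-0.66, adjusted p = 0.0116), with 0 called without the block or without mouse 3. These 2 of 29 are near the share of all genes tested (3.46%), which the list does not clearly exceed. In a list of 12 genes of the amino acid response, 6 were downregulated and Atf3 was upregulated (log2 fold change 1.33, adjusted p = 0.0377 from limma), beside 3.46% and 5.68% of all genes tested. Without the block only Chac1, Trib3 and Atf5 were called, and without mouse 3 only Chac1, Atf5 and Nupr1. Chac1, Trib3 and Atf5 had log2 fold changes of -1.91, -1.78 and -1.63, and Asns, Nupr1 and Ddit4 had -0.71 each, while the response's own factor Atf4 changed by less than 1.5-fold (-0.39, adjusted p = 0.0144 from limma). Markers of other epithelial cells moved in the same comparison. Of 6 goblet cell markers, Spink4, Fcgbp, Agr2 and Tff3 were downregulated and Clca1 was upregulated, with all but Tff3 called without the block and only Spink4 and Clca1 without mouse 3. Of 6 Paneth cell markers, Itln1 and Defa24 were downregulated and Mmp7 was upregulated. Among 6 stem cell markers, Olfm4 and Smoc2 were downregulated and Ascl2 was upregulated. The enteroendocrine marker Gip and the tuft cell marker Pou2f3 were downregulated as well, 1 gene of 6 and 1 of 4. None of the Paneth, stem, enteroendocrine and tuft cell markers was called without the block or without mouse 3. The part of any of these cell types in the transporter levels was not tested.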

How the data were processed

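RNA-Seq was performed on organoids of 3 mice, each treated with LDL or PBS, and samples were assigned to treatment and mouse from their labels. The 2 libraries of a replicate number share an animal identifier, and after removal of the treatment means they correlated across genes with r = 0.48, 0.42 and 0.46. The authors made ribosomal RNA-depleted stranded libraries, aligned reads to GRCm39 with STAR, counted them with featureCounts and deposited DESeq2-normalized counts, a signal per gene. The annotation release and strand setting are not given in the sources used here. The deposited signal was 100% whole reads (tolerance 0.001 read) times 1 factor per library, and those reads were recovered for edgeR and DESeq2. Intervals and floors (3 reads) cover counting error only.

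Gene names and positions came from GENCODE M39, which held 54749 of the 55416 identifiers. Fits used limma 3.58.1, edgeR 4.0.16 and DESeq2 1.42.0 in R 4.3.3, two-sided, and figures Python 3.11.15 with matplotlib 3.10.9. Limma with and without the block, edgeR and DESeq2 were run on simulated data in which all mice had the same response. The other alternatives were not. The main fit had the mouse as a block, since the columns pair by animal, and the study's text names no term for it. The 38 genes and all lists were chosen with earlier results of these data known. Values per library are given for called transporters, for heavy chains and their partners, for brush border and basolateral carriers and for the 5 highest levels, and additionally for the other abundant SLC1, SLC6 and SLC38 genes, which were chosen after their values were seen. Of other lists, the called genes are named, except for results that are not reported here. Motifs were counted on both strands without a test.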

Additional observations from a re-analysis of the deposited data

How the results depend on the processing

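The 5 downregulated transporters were called with pseudocounts of 0.5 and 5, upper-quartile and TMM scaling, no filter on the mean, and edgeR with the block, and 4 of them with DESeq2 and with a mean of at least 50. Without the replicate block, 1 transporter was lower, and over all genes 162 were higher and 73 lower in place of 1048 and 639. At any fold change, 3 transporters were higher and 9 lower, and 1375 genes were lower, and at an adjusted p under 0.001, 2 transporters were lower, with 188 genes higher and 39 lower. Slc7a11 made 1 transporter higher with edgeR and with no filter. Leaving out 1 mouse at a time gave 0 to 1 transporters higher and 2 to 6 lower, and 265 to 1604 genes higher and 77 to 1348 lower, with the fewest calls without mouse 3 and the most without mouse 2. The log2 fold change of Slc6a9 then ran from -0.15 to 0.51, of Slc7a9 from -0.042 to 0.20, of Slc38a2 from -0.0024 to 0.14 and of Slc38a6 from -0.12 to 0.17, each changing sign. The cause of these changes was not tested. Of 369 values of single transporters under alternatives, 351 kept their direction and were called or not called as before, although some of those not called crossed an adjusted p of 0.05. The p-values rest on 3 mice. Genes with a mean below 10 normalized counts rest on few reads and were not tested in the main fit.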
